A study of Mus musculus with 22 samples.

Results

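The ADP-ribosyltransferase genes Parp1, Parp2, Parp3, Parp4, Parp6, Parp8, Parp10, Parp12, Tnks and Tnks2 were followed in mouse hippocampal nuclei 24 h after kainate-induced seizures. They were taken by gene symbol from the table of counted mRNA reads, and all 10 were among its 53379 genes and among the 40714 genes that carried a symbol and passed the filter on low counts. Parp3 was placed at the head of the set because of its kainate response in neurons, so its values in that comparison, and in any other that shares those libraries, are a description without a test. Male C57/BL6N mice, which arrived at 8 weeks of age and were acclimatised for 4 weeks, received 70 nl of 20 mM kainate, a glutamate receptor agonist, or 0.9% NaCl (sham) above the right hippocampus. The hippocampus of the other side, which was not injected, was examined, and only kainate mice that had convulsive seizures were kept. The study's methods and the count table place the tissue on the left, whereas the extraction protocol in the sample labels names the right. The 8 mice of each treatment were combined into 3 pools of 4 or 2 mice, so each library is a pool and not 1 animal. Nuclei were sorted by the neuronal nuclear protein NeuN into NeuN+ nuclei (called neurons) and NeuN- nuclei (called glia, although every cell type without NeuN is included). This gave 3 kainate neuron, 3 sham neuron, 3 kainate glia and 2 sham glia libraries.

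ADP-ribosyltransferases take ADP-ribose from NAD and attach it to proteins or nucleic acids. Parp1, Parp2 and Parp3 are switched on by DNA strand breaks, Parp1 and Parp2 build chains of ADP-ribose that recruit repair factors, and Parp3 attaches single units at double-strand breaks. The tankyrases Tnks and Tnks2 build chains on proteins such as axin and telomere proteins, Parp4 is a component of the cytoplasmic vault particle, and Parp6, Parp8, Parp10 and Parp12 transfer single units. In brain, excessive Parp1 activity after excitotoxic injury is known for depleting NAD.

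Total counts per library ran from 12058875 to 45428465, and TMM scaling factors from 0.700 to 1.68. In glia, replicate 2 of the kainate group and replicate 1 of the sham group had a low RNA input, near 0.05 ng and amplified for 15 cycles, where 1 ng and 10 cycles served for the rest. In sham mice all 5 neuronal markers were higher in neurons than in glia, whereas 4 of 4 astrocyte, 5 of 5 microglial, 4 of 4 oligodendrocyte, 2 of 2 precursor, 2 of 2 pericyte and 1 of 3 endothelial markers were lower (edgeR quasi-likelihood test, FDR below 0.25). No marker of any of these types was at 0 in any library. Levels are given as CPM, reads scaled to a fixed library size after TMM normalisation. In such sorted bulk samples, fewer cells of a type and less RNA per cell cannot be told apart.

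Parp3 (ENSMUSG00000023249.15) is a protein-coding gene on the minus strand of chromosome 9, at 106470322 to 106476949 of GRCm38, with 10 exon blocks that add up to 3699 bases. Its upstream region is shown because Parp3 was the member whose group means differed by the largest ratio, and because its start lies beside that of a second gene. The 250 bases before the RefSeq start, chr9:106476950-106477199 of GRCm38.p6 on the minus strand, read 5′ to 3′ with CG dinucleotides in capitals:
Parp3 upstream: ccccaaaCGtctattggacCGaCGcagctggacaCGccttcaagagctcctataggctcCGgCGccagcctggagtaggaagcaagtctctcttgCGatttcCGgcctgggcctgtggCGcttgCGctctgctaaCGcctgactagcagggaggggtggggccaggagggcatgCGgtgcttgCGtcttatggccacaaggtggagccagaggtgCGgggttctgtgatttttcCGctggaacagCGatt
This stretch held 16 CG dinucleotides at 61.2% G and C, against a median of 6 CG dinucleotides and 52.4% over 32851 mouse promoters of the same length. The lower and upper quartiles over all promoters were 2 and 16 CG dinucleotides.

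Parp3 was low in neurons of sham mice and higher after kainate. In sham neurons it stood at 1.34, 3.88 and 3.48 CPM, from 20, 135 and 108 reads. In kainate neurons it stood at 21.4, 41.0 and 30.6 CPM, from 301, 1607 and 680 reads. Every kainate library was above every sham library, with means of 31.0 ± 9.78 (SD, n = 3) and 2.90 ± 1.36 CPM (SD, n = 3). The fitted difference was 3.40 on the log2 scale (SE 0.48), a fold of 10.5. Parp3 was the 1 member of 10 past the FDR threshold in this comparison, in which 0.165% of all genes tested passed, and because Parp3 was chosen on it nothing is read from that count. The call was lost without sham neurons replicate 2 or without sham neurons replicate 3, while the log2 difference stayed between 3.08 and 3.66 whichever library was left out.

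In glia Parp3 started from a higher level. The sham glia libraries held 22.4 and 10.9 CPM and the kainate glia libraries 98.3, 87.6 and 55.8 CPM. The lowest kainate library was thus above the higher sham library, and the means were 80.6 ± 22.1 (SD, n = 3) and 16.6 ± 8.18 CPM (SD, n = 2). The log2 difference was 2.28 (SE 0.53, 95% interval 1.13 to 3.42), a fold of 4.84. It did not pass the test over all genes (edgeR quasi-likelihood FDR = 0.494, unadjusted p = 0.000812), in a comparison that called 0.101% of genes. With the replicate number as a block the difference passed (log2 difference 2.25, FDR = 1.38e-08), as did 2.93% of all genes in the upward direction. The sources used here do not state what ties a kainate number to a sham number. Sham glia had no replicate 2, so kainate glia replicate 2 added nothing to the blocked kainate differences in glia. DESeq2 also called Parp3 (FDR = 0.0118), as it did 0.575% of all genes. Without sham glia replicate 3 the log2 difference was 1.84 and passed (FDR = 0.240), in a fit that called 5.53% of all genes higher, and without sham glia replicate 1 it was 2.92 and did not (FDR = 0.589). The kainate difference of Parp3 was 1.12 larger on the log2 scale in neurons than in glia (SE 0.66), a value that shares the neuron libraries on which the gene was chosen. The glia nuclei came from the same mouse pools as the neuron nuclei, so the glia tests of Parp3 are not independent of that choice.

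**Figure D1:**
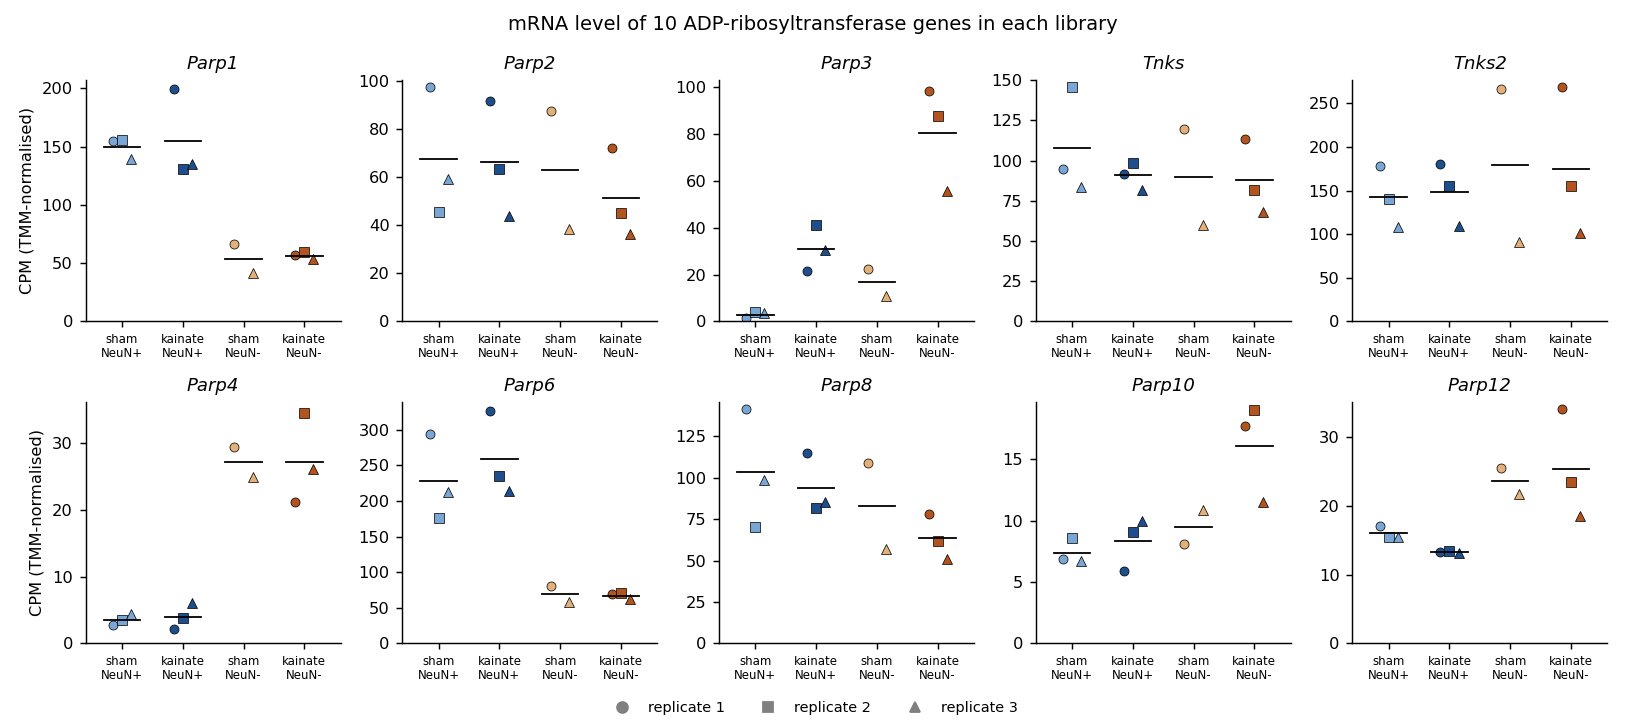
CPM after TMM scaling (y axis, linear and starting at 0) of the 10 genes in each of the 11 libraries, by group (x axis), with each marker 1 library and the bar the group mean. Parp3 stands between 1.34 and 3.88 CPM in sham neurons and between 21.4 and 41.0 in kainate neurons, whereas Parp4 stands apart by fraction and not by treatment.

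Markers of other cell types were read beside the Parp3 values, since neurons were sorted by 1 protein. The summed level of the 4 astrocyte markers was 64.4 to 204 CPM in kainate neurons and 56.1 to 97.1 CPM in sham neurons, against 478 to 2152 CPM in kainate glia and 570 to 2186 CPM in sham glia. The 5 microglial markers summed to 31.9 to 49.1 CPM in kainate neurons and 25.1 to 29.0 CPM in sham neurons, so these groups did not overlap. The 4 oligodendrocyte markers summed to 175 to 356 and 214 to 389 CPM. Median log2 differences of kainate over sham in neurons were 1.06 for astrocyte, 0.06 for microglial and -0.11 for oligodendrocyte markers. With edgeR no marker of these 3 types was called between kainate and sham neurons, while at an unadjusted p below 0.05 the astrocyte markers Gfap and Aqp4 and the microglial marker Csf1r stood out and DESeq2 called Gfap. With the replicate block 3 of the 4 astrocyte markers were called higher in kainate neurons and 1 lower, where 3.19% of all genes were called higher and 1.9% lower. The block also called 1 microglial and 1 neuronal marker higher, and 1 microglial and 1 oligodendrocyte marker lower. In glia the median log2 differences after kainate were -0.85 for oligodendrocyte, -0.73 for microglial and -1.04 for precursor markers, and with the block 3, 2 and 2 of them were called lower, with 1 astrocyte marker lower and 1 astrocyte and 1 neuronal marker higher, where 2.86% of all genes were called lower and 2.93% higher. Without the block edgeR called no marker in glia, Gfap and the microglial marker P2ry12 stood out at an unadjusted p below 0.05, and DESeq2 called P2ry12. The part of these cell types in the Parp3 values was not tested.

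**Figure D2:**
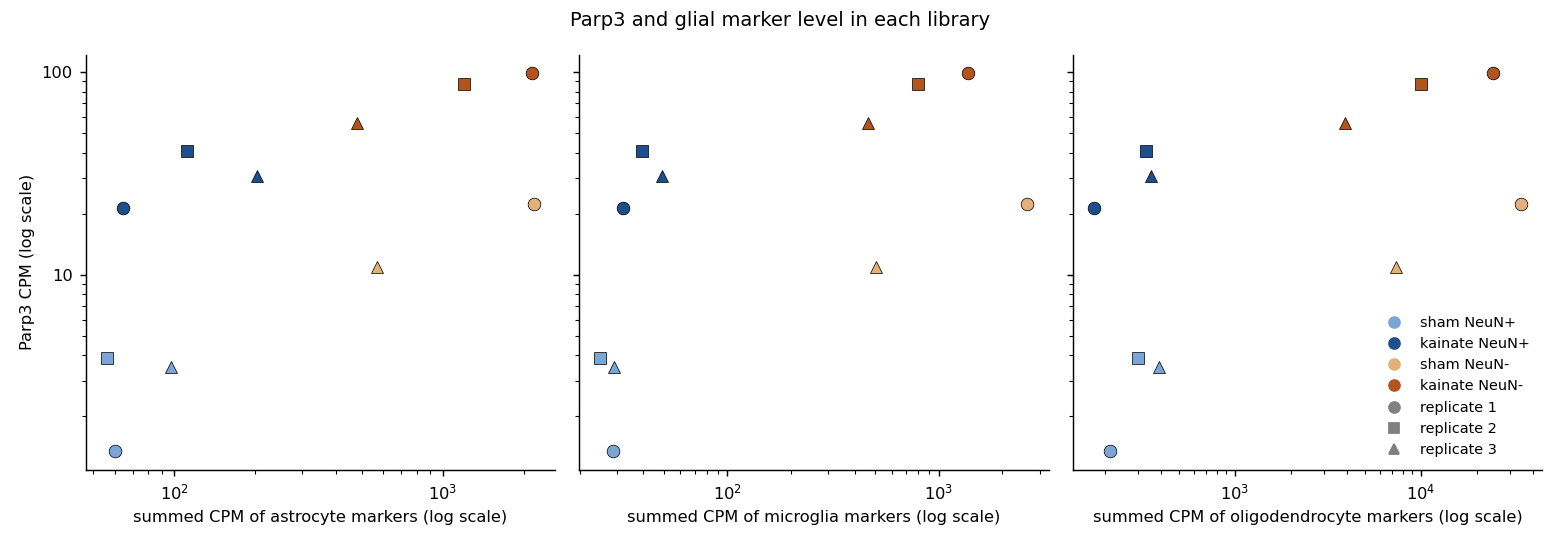
Parp3 CPM (y axis, log scale) against the summed CPM of astrocyte, microglial and oligodendrocyte markers (x axes, log scale), with 1 point for each of the 11 libraries, colour for the group and shape for the replicate. Parp3 runs from 1.34 to 3.88 CPM in sham neurons, where astrocyte markers sum to 56.1 to 97.1 CPM, and from 21.4 to 41.0 CPM in kainate neurons, where they sum to 64.4 to 204 CPM.

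Parp3 lies head to head with Rrp9, which codes for a protein of the small nucleolar ribonucleoproteins that process ribosomal RNA. The gene spans overlap on opposite strands, and 20 exon bases, 0.541% of those of Parp3, belong to both. The library kit does not mark strand, so reads in these bases could not be assigned to either gene by strand. Rrp9 stood at 122, 89.5 and 65.3 CPM in kainate neurons and at 124, 68.2 and 85.5 CPM in sham neurons, groups that overlap, with a log2 difference of -0.0021 (SE 0.38, FDR = 1.00). In glia it stood at 96.8, 65.2 and 57.2 CPM after kainate and at 57.1 and 32.9 CPM in sham. The lowest kainate glia library was only just above the higher sham library. The log2 difference of 0.70 (SE 0.44) was not called (FDR = 1.00), but was with the replicate block (FDR = 0.0501).

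**Figure D3:**
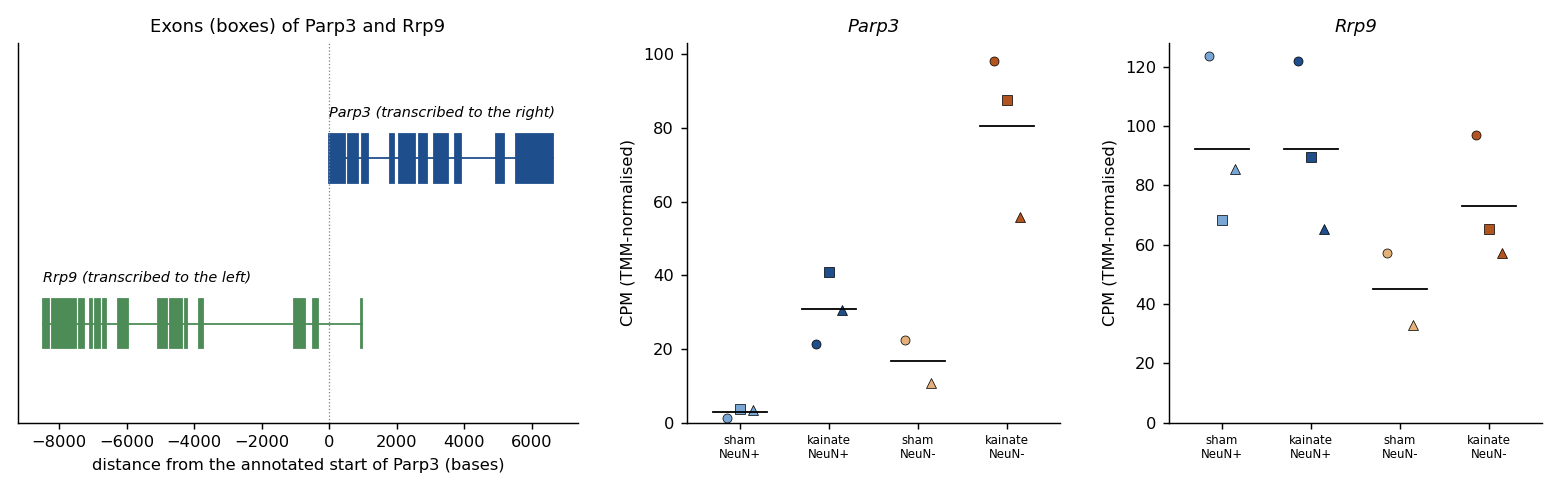
Left, exon blocks of Parp3 and Rrp9 by distance in bases from the annotated Parp3 start (GENCODE M21). Middle and right, CPM of each gene in the 11 libraries (y axes from 0), with each marker 1 library and the bar the group mean, showing separated Parp3 groups and overlapping Rrp9 groups in neurons.

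Over the 11 libraries, the 5 genes whose log2 CPM followed Parp3 most closely, among 23261 genes with a median of at least 1 CPM, were Clcf1 (Pearson r = 0.968), Vim (r = 0.951), Anxa2 (r = 0.950), Rel (r = 0.946) and Tnc (r = 0.944). Clcf1 is a cytokine of the interleukin-6 family, Vim an intermediate filament protein, Anxa2 a calcium-dependent membrane-binding protein, Rel a subunit of NF-kappaB and Tnc an extracellular matrix glycoprotein. Their log2 differences of kainate over sham ran from 1.19 for Rel to 2.89 for Vim in neurons and from 0.85 for Rel to 2.24 for Clcf1 in glia. Since the genes were picked for following Parp3 over these libraries, the differences and the correlations are a description only, and the points share 4 groups, pools and library depth. Among the other members the r with Parp3 ran from -0.53 for Parp6 to 0.71 for Parp10.

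The other enzymes that respond to DNA breaks did not follow Parp3. Parp1, which accounts for most chain formation after DNA damage, stood at 199, 131 and 135 CPM in kainate neurons and at 155, 156 and 139 CPM in sham neurons, which overlap, with a log2 difference of 0.05 (SE 0.32). In glia it stood at 56.6, 59.6 and 53.3 CPM after kainate and at 66.6 and 41.1 CPM in sham, with a log2 difference of 0.07 (SE 0.36, FDR = 1.00) whose 95% interval ran from -0.71 to 0.85 and whose sign changed with DESeq2 size factors. Parp2, which shares chain-building with Parp1, stood at 91.9, 63.5 and 43.9 CPM in kainate neurons and at 97.5, 45.7 and 59.1 CPM in sham neurons. In glia Parp2 held 72.2, 45.1 and 36.2 CPM after kainate against 87.7 and 38.2 CPM. Replicates of Parp2 thus differed more within a group than the groups did, and the log2 differences were -0.02 (SE 0.44) in neurons and -0.30 (SE 0.49, FDR = 1.00) in glia.

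The tankyrases overlapped between kainate and sham in both fractions. Tnks, which acts at telomeres and on the Wnt pathway protein axin, stood at 92.0, 98.8 and 81.8 CPM in kainate neurons and at 94.5, 146 and 83.6 CPM in sham neurons, and at 114, 81.9 and 67.9 CPM in kainate glia against 120 and 60.0 CPM in sham glia. Its log2 differences were -0.25 (SE 0.37) in neurons and -0.03 (SE 0.41, FDR = 1.00) in glia. Tnks2, its close homologue, stood at 180, 156 and 109 CPM in kainate neurons and at 178, 141 and 108 CPM in sham neurons, with a log2 difference of 0.06 (SE 0.46). In glia Tnks2 stood at 268, 156 and 101 CPM after kainate and at 267 and 91.5 CPM in sham, nearly the same spread in both groups, with a log2 difference of -0.03 (SE 0.51, FDR = 1.00).

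Parp4, the vault enzyme, was, like Parp3, lower in neurons than in glia but showed no called kainate difference. It stood at 2.13, 3.82 and 6.08 CPM in kainate neurons and at 2.75, 3.45 and 4.38 CPM in sham neurons. In glia Parp4 stood at 21.1, 34.6 and 26.1 CPM after kainate and at 29.4 and 24.9 CPM in sham. The groups overlapped within each fraction, and the log2 differences were 0.19 (SE 0.40) in neurons and 0.01 (SE 0.44, FDR = 1.00) in glia, the latter with a 95% interval of -0.94 to 0.95 and a negative sign with DESeq2 size factors.

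Parp10, a mono-ADP-ribosyltransferase that is found in nucleus and cytoplasm, stood at 17.7, 19.0 and 11.5 CPM in kainate glia and at 8.12 and 10.9 CPM in sham glia, groups that did not overlap. The log2 difference of 0.76 (SE 0.41, 95% interval -0.12 to 1.64) did not pass (FDR = 1.00). In neurons Parp10 overlapped at 5.90, 9.07 and 10.0 CPM against 6.85, 8.59 and 6.70 CPM. Parp12, an interferon-responsive enzyme, stood at 13.2, 13.5 and 13.1 CPM in kainate neurons and at 17.1, 15.5 and 15.5 CPM in sham neurons, lower in every kainate library, with a log2 difference of -0.27 (SE 0.32). In glia it overlapped, at 34.0, 23.4 and 18.5 CPM against 25.5 and 21.6 CPM, with a log2 difference of 0.10 (SE 0.35, FDR = 1.00).

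Parp6, which is known for a part in dendrite growth of hippocampal neurons, stood at 325, 235 and 215 CPM in kainate neurons and at 293, 177 and 213 CPM in sham neurons. In glia Parp6 stood at 68.7, 70.9 and 62.0 CPM after kainate and at 80.3 and 58.6 CPM in sham. Parp8 stood at 115, 81.4 and 85.3 CPM in kainate neurons and at 141, 70.1 and 98.8 CPM in sham neurons, and at 78.1, 61.9 and 50.7 CPM in kainate glia against 109 and 56.97 CPM in sham glia. Both genes overlapped between treatments in both fractions. The log2 differences were 0.18 (SE 0.34) and -0.14 (SE 0.37) in neurons, and -0.05 (SE 0.37) and -0.38 (SE 0.41) in glia (both FDR = 1.00).

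Across the set, edgeR called 0 of 10 members between kainate and sham glia, with 1 (Parp3) at an unadjusted p below 0.05 and 1 (Parp3) called by DESeq2. Over all genes tested 2.05% had such a p and DESeq2 called 0.575%. In glia 2 of the 10, Parp3 and Parp10, were higher in every kainate library, as were 4.7% of all genes tested. In neurons 2 of 10, Parp3 above and Parp12 below, had groups that did not overlap, as had 7.86% of all genes. The median log2 difference over the members was -0.01 in glia and 0.05 in neurons, beside 0.02 and -0.01 over all genes. Apart from Parp3, the log2 differences ran from -0.38 to 0.76 in glia (SE 0.35 to 0.51) and from -0.27 to 0.19 in neurons (SE 0.32 to 0.46). Differences several times these errors also went uncalled, as for Parp3 in glia, so an uncalled member may still differ between treatments.

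**Figure D4:**
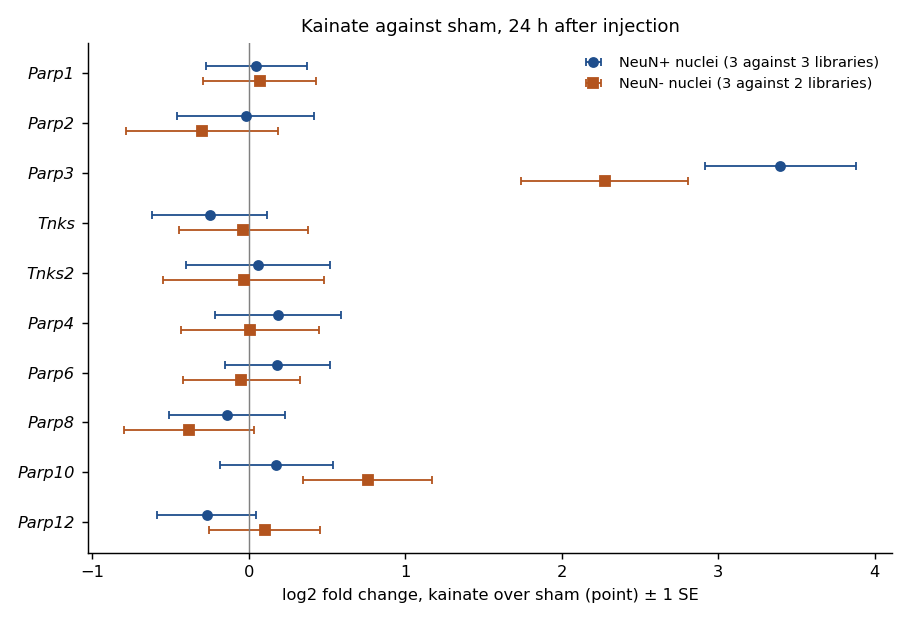
Fitted log2 difference of kainate over sham (x axis) for each member (y axis) in neurons (circles, 3 against 3 libraries) and glia (squares, 3 against 2 libraries), with bars of 1 SE. Parp3 lies at 3.40 and 2.28, and the other 9 genes lie between -0.38 and 0.76.

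More members were called between the fractions than between treatments. In sham mice Parp1 and Parp6 were higher in neurons, by 1.48 (SE 0.38, FDR = 0.0244) and 1.71 (SE 0.40, FDR = 0.0143) on the log2 scale. Parp4 was lower in neurons, with a log2 difference of -2.94 (SE 0.45, FDR = 0.00163), a level 0.131 times that in glia. Of the 9 members tested, Parp3 being left out, 2 were thus called higher in neurons and 1 lower, in a comparison that called 9.11% of genes higher and 7.63% lower. With the pool as a block, which ties both fractions of the same animals, Parp8 was also called higher in neurons (log2 difference 0.58, FDR = 0.145, against 0.32 and FDR = 0.783 without it), where 18.3% of all genes were called higher and 15.7% lower. Sham neurons replicate 2 had no glia library of the same pool and added nothing to this blocked difference.

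After kainate Parp1 and Parp6 were again higher in neurons, by 1.46 (SE 0.33, FDR = 0.0104) and 1.94 (SE 0.35, FDR = 0.00264). Parp4 was lower, at -2.76 (SE 0.42, FDR = 0.00126). Parp12 and Parp10 were also called lower, at -0.93 (SE 0.32, FDR = 0.0913) and -0.95 (SE 0.36, FDR = 0.139). This made 2 of 9 higher and 3 of 9 lower, where 11.3% and 9.39% of all genes were called. The count fell from 5 to 3 without kainate glia replicate 1, when Parp10 (FDR = 0.296) and Parp12 (FDR = 0.335) were lost. Parp10 was lost too without kainate neurons replicate 1 (FDR = 0.428), kainate neurons replicate 2 (FDR = 0.284) or kainate glia replicate 2 (FDR = 0.379), and without both low-input libraries (-0.79, FDR = 0.341), which left a count of 4. With the pool block Parp8 (0.57, FDR = 0.0677) and Parp2 (0.37, FDR = 0.198) joined the higher genes, where 21.4% of all genes were called higher and 27.9% lower. Parp10 and Parp12 were not called in sham (-0.36, FDR = 0.740 and -0.56, FDR = 0.497), although Parp12 was called without kainate glia replicate 3 (-0.83, FDR = 0.0992), with the DESeq2 Wald test (-0.65, FDR = 0.216) and with a minimum of 1 CPM in 3 libraries (-0.67, FDR = 0.141), where 11.8%, 10.4% and 13.6% of all genes were called lower. For Parp10 and Parp12 the kainate log2 difference in neurons minus that in glia was -0.59 (SE 0.54) and -0.37 (SE 0.48), each within about 1 SE of 0.

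Parp3 was lower in neurons than in glia in both treatments, with log2 differences of -2.50 (SE 0.50) in sham and -1.38 (SE 0.44) after kainate, given without a test. Every neuron library was below every glia library of the same treatment. The kainate neuron libraries, at 21.4, 30.6 and 41.0 CPM, stood mostly above the sham glia libraries, at 10.9 and 22.4 CPM. Only the lowest kainate neuron library was below the higher sham glia library. Without sham glia replicate 1 the sham difference was -1.84. The median log2 difference over the 9 members other than Parp3 was 0.10 in sham, beside -0.37 over all genes.

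**Figure D5:**
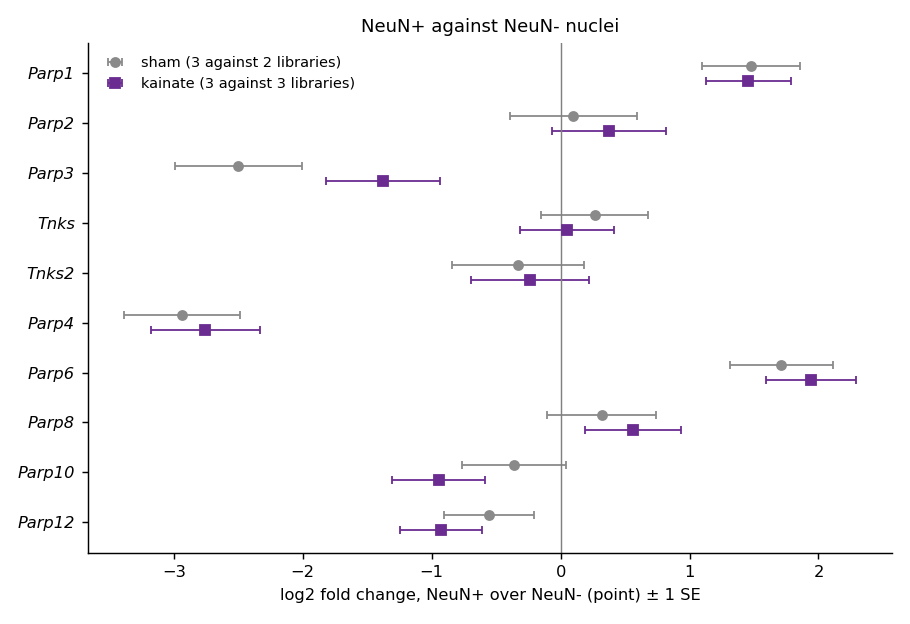
Fitted log2 difference of neurons over glia (x axis) for each member (y axis) in sham (circles, 3 against 2 libraries) and kainate mice (squares, 3 against 3 libraries), with bars of 1 SE. Parp1 and Parp6 lie to the right at 1.46 to 1.94, Parp4 to the left at -2.94 and -2.76, and Parp3, shown without a test, at -2.50 and -1.38.

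Levels were compared between genes as CPM per kilobase of exon. In sham neurons the order was Parp6 (29.3), Parp1 (28.3), Parp2 (18.6), Tnks2 (13.7), Parp8 (11.6), Tnks (7.26), Parp12 (4.01), Parp10 (1.73), Parp3 (0.784) and Parp4 (0.540). Neighbours in this order overlapped between libraries from Parp6 down to Tnks and again between Parp3 and Parp4, and the steps from Tnks to Parp12, from Parp12 to Parp10 and from Parp10 to Parp3 did not overlap. In sham glia the order was Parp2 (17.4), Tnks2 (17.2), Parp1 (10.2), Parp8 (9.34), Parp6 (8.95), Tnks (6.04), Parp12 (5.90), Parp3 (4.50), Parp4 (4.15) and Parp10 (2.22). With 2 sham glia libraries, only the step from Parp4 to Parp10 was free of overlap. Parp3 thus held rank 9 in sham neurons and rank 8 in sham glia, and its mean after kainate was 8.38 CPM per kilobase in neurons and 21.8 in glia.

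Parp2, Parp8 and Tnks2 were highest in replicate 1 in all 4 groups. For Parp2 the 4 libraries of replicate 1 stood at 72.2 to 97.5 CPM and the other 7 at 36.2 to 63.5 CPM, and for Tnks2 at 178 to 268 CPM against 91.5 to 156 CPM. For Parp8 these ranges overlapped, at 78.1 to 141 CPM and 50.7 to 98.8 CPM. Parp3 was highest in replicate 1 in 2 of the 4 groups, both glial, and lowest there in both neuron groups.

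RefSeq promoters were found for 8 of the 10 members, all but Parp10 and Tnks. The 250 bases upstream were searched on both strands for AP-1 (TGANTCA), the cAMP response element (TGACGTCA), the STAT element (TTCNNNGAA) and the interferon-stimulated element ISRE, of which none contains another. They occurred in 6.749%, 1.546%, 7.02% and 2.977% of the 32851 promoters. Among the members the single match was the interferon-stimulated element before Parp4. The Parp3 stretch printed above held none of these letters.

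Other members share exon bases with neighbours. Parp4 shares 5.127% of its exon bases with the antisense gene Gm16573 (0.268 to 1.97 CPM), Parp10 shares 4.795% with Plec (38.7 to 291 CPM), Tnks shares 4.265% with Gm9939 (0 to 0.899 CPM) and Parp1 0.132% with the microRNA gene Mir6904 (0.128 to 0.999 CPM). Plec, which codes for a cytoskeletal linker, was higher in sham neurons than in sham glia by 2.24 (FDR = 0.0047) on the log2 scale, where Parp10 was not called (-0.36, SE 0.40). In glia the kainate difference was 0.56 (SE 0.40) for Plec and 0.76 (SE 0.41) for Parp10, the same direction, and neither was called. The part of shared reads in the Parp10 values was not tested. The starts of 3 further genes lie within 1000 bases of a member without shared exons, namely Ccnb1ip1 (0 to 1.10 CPM) beside Parp2, Cenpj (3.29 to 12.1 CPM) beside Parp4 and 4930599N23Rik (1.21 to 5.27 CPM) beside Parp12. Rpph1, also beside Parp2, was not analysed here. None of these neighbours was called between kainate and sham in neurons or in glia.

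Among the other enzymes of the family, Tiparp, a mono-ADP-ribosyltransferase induced by the aryl hydrocarbon receptor, had the largest kainate differences. Its means were 92.9 ± 40.2 CPM (SD, n = 3) in kainate neurons against 28.0 ± 11.5 CPM (SD, n = 3) in sham neurons, and 165 ± 116 CPM (SD, n = 3) in kainate glia against 64.4 ± 41.2 CPM (SD, n = 2) in sham glia. The log2 differences of 1.73 (SE 0.56) in neurons and 1.35 (SE 0.64) in glia were not called (both FDR = 1.00), but were with the replicate block (1.68, FDR = 2.14e-08 and 1.504, FDR = 2.33e-05), where 3.19% of genes in neurons and 2.93% in glia were called higher. Parp9, which pairs with Dtx3l, and Parp14, a macrodomain enzyme of macrophage signalling, had log2 differences of 0.13 (SE 0.42) and -0.17 (SE 0.54) in neurons and of 0.54 (SE 0.48) and 0.11 (SE 0.60) in glia, with FDR = 1.00 throughout.

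Genes that remove ADP-ribose, repair strand breaks, work with tankyrases or supply NAD were read from fixed lists, 46 genes together with the other family members and Dtx3l, all of which passed the filter. With edgeR 0 of 46 were called between kainate and sham in either fraction, with 3 at an unadjusted p below 0.05 in neurons (Tiparp, Macrod1 and Prkdc) and 2 in glia (Timeless and Nmrk1), and with DESeq2 Tiparp in neurons alone was called. Over all genes tested 2.09% in neurons and 2.05% in glia had such a p, and DESeq2 called 0.815% and 0.575%. With the replicate block Macrod1, a hydrolase of single ADP-ribose units, was called lower in neurons (-0.95, FDR = 0.0335) and in glia (-0.92, FDR = 0.152). Prkdc, the catalytic subunit of the DNA-dependent protein kinase, was called lower as well (-0.90, FDR = 0.0012 in neurons and -0.59, FDR = 0.242 in glia). In the blocked comparisons 1.9% of all genes were called lower in neurons and 2.86% in glia. In glia the block also called Numa1, a mitotic spindle protein, and Nmrk1, a nicotinamide riboside kinase, lower and Timeless, a replication fork protein that binds Parp1, higher. The genes called with the block alone were named after their values were seen.

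Between sham neurons and sham glia, 1 of the 5 other family members was called, Parp14, which was lower in neurons (-1.48, FDR = 0.181). Of the 7 genes that remove ADP-ribose, Macrod2 was called higher in neurons (1.67, FDR = 0.0111). Among the strand break repair genes Prkdc was higher (1.08, FDR = 0.138) and the chromatin remodeller Chd1l was lower (-0.77, FDR = 0.231). With the pool block 2 of the other family members were called higher and 2 lower, as were 2 and 2 of the genes that remove ADP-ribose. Over all genes tested 9.11% were called higher and 7.63% lower without that block, and 18.3% and 15.7% with it. Of 11 genes of NAD supply and use 2 were higher and 2 lower. The axonal NAD synthase Nmnat2 (1.12, FDR = 0.138) and the NAD hydrolase Sarm1 (1.63, FDR = 0.0134) were higher in neurons, whereas the NAD-consuming surface enzyme Cd38 (-2.92, FDR = 0.00577) and Naprt (-1.71, FDR = 0.017), which makes NAD from nicotinic acid, were lower. Nmnat2, the fourth of this list by p, was named after its values were seen. None of the 7 tankyrase partners was called without the block and 1, Blzf1, was with it, likewise named after its value was seen. Dtx3l was lower in neurons (-1.32, FDR = 0.0832).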

How the data were processed

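mRNA of sorted nuclei was sequenced with a SMART-Seq v4 kit, which does not mark strand. The authors trimmed reads with Trim Galore 0.4.3, aligned them to mm10 with Rsubread and deposited raw counts of unique reads per GENCODE M16 gene. Strand could therefore not separate genes that overlap, and whether it was used in counting is not given in the sources used here. Gene symbols, exon lengths and neighbours came from GENCODE M21 on GRCm38, and 105 genes without a symbol were left out.

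The counts were fitted with edgeR 4.0.16 (R 4.3.3): filterByExpr (minimum count 10), TMM scaling, 1 quasi-likelihood model with a mean for each of the 4 groups, and Benjamini-Hochberg FDR over 40714 genes with the study's threshold of 0.25. The common biological coefficient of variation was 0.6 at 7 residual degrees of freedom. On simulated counts for 38677 genes, 31.5% of 200 genes changed by 2 on the log2 scale were recovered in the glia comparison, with 21.2% false calls, and for 38250 genes 40.5% with 19.8% in the sham fraction comparison. The changed genes were drawn only from genes above a minimum mean count. The simulated libraries had no shared deviations, so these rates may not hold for the real libraries or for low genes. p-values measure the spread between pools. Same-numbered kainate and sham libraries tended to deviate together, with r = 0.643, 0.161 and 0.491 in neurons and 0.760 and 0.787 in glia. Both fractions of a pool did so too (0.240 to 0.668), and numbers and pools were therefore used as blocks in alternative fits. The deviations of the 2 sham glia libraries mirror each other, so the r values that involve them are not independent of one another. What ties the numbers across treatments is not stated in the labels. The paper describes mRNA libraries sequenced in separate batches on different instruments, with single or paired-end reads. The instrument of each library was not used in the fits, and its part in the shared deviations was not tested.

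The members and lists were chosen with earlier results of these data known. Named genes were all members, the 5 genes most like Parp3, neighbours within 1000 bases, list genes called in glia or between sham fractions (at most 3 per list by p), and Tiparp, Parp9 and Parp14. Alternatives were DESeq2 1.42.0 size factors and Wald test, other filters, FDR below 0.05, each library left out, low RNA input as a covariate or left out, genes without a symbol, separate fits and the blocks. The 11 bisulfite libraries were not used here. The values of 1 listed strand break repair gene, and that list's counts between the fractions, are not reported here.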

Additional observations from a re-analysis of the deposited data

How the results depend on the processing

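The Parp3 values in neurons, and between the fractions, kept their direction and moved by less than 1 SD between replicates under every alternative tried. In glia Parp3 kept its direction throughout but was called under some alternatives. With a minimum of 1 CPM in 3 libraries it was just under the threshold (edgeR quasi-likelihood FDR = 0.244), in a fit that called 60 genes higher and 7 lower of 29254. The count of members called was 1 with the DESeq2 Wald test (Parp3 at 2.18), with this minimum (2.29) and with the replicate block (2.25), and 0 under the others. With 1 library left out it was 0 to 1, and Parp3 in glia stood between 1.84 and 2.92. Leaving out 1 library gave 0 to 1 members past the threshold in neurons and 3 to 5 between the fractions after kainate. At an FDR below 0.05 the latter count was 3, Parp10 and Parp12 being lost by construction. The calls of Parp1, Parp4 and Parp6 between the fractions held under every alternative. Beside Parp3 in glia, the blocks changed only the member calls given with the results.

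Every member value that changed sign belonged to a comparison in which it was not called, and the cause was not tested. In the glia kainate comparison the values were -0.0224 for Parp1 and -0.0837 for Parp4 with DESeq2 size factors and -0.022 and -0.0834 with the DESeq2 Wald test, and both gave -0.0101 for Parp2 between sham fractions. Without a filter Parp4 was -0.0322 in glia. With the replicate block Parp4 was -0.20, Tnks 0.0503 and Tnks2 0.0763 in glia. With low RNA input as a covariate Parp6 was 0.011, Tnks 0.0911 and Tnks2 0.21 in glia, and Tnks2 was 0.0589 between sham fractions. Without both low-input libraries the glia values were 0.53 for Parp2, -0.0583 for Parp4, 0.18 for Parp6, 0.20 for Parp8, 0.62 for Tnks and 1.04 for Tnks2, and Tnks2 was 0.68 between sham fractions. In separate fits Tnks was 0.0023 and Tnks2 0.0072 in glia, and with a minimum of 1 CPM in 3 libraries Tnks was -0.0605 between the fractions after kainate.

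With each library left out in turn, the glia values ran from -0.25 to 0.48 for Parp1, -0.79 to 0.45 for Parp2, -0.20 to 0.16 for Parp4, -0.27 to 0.22 for Parp6, -0.78 to 0.19 for Parp8, -0.26 to 0.25 for Parp12, -0.46 to 0.58 for Tnks and -0.61 to 0.96 for Tnks2. Between sham fractions they ran from -0.38 to 0.86 for Parp2, -0.0757 to 0.90 for Parp8, -0.15 to 0.89 for Tnks and -0.91 to 0.68 for Tnks2. After kainate they ran from -0.25 to 0.32 for Tnks and -0.67 to 0.23 for Tnks2. In neurons, where no member but Parp3 was past the threshold, they ran across 0 for Parp1 (-0.17 to 0.16), Parp2 (-0.33 to 0.34), Parp4 (-0.23 to 0.48), Parp6 (-0.018 to 0.41), Parp8 (-0.35 to 0.15), Tnks (-0.40 to 0.0287) and Tnks2 (-0.10 to 0.25). Where sham glia was left with 1 library, that library was assumed to vary like the other groups. DESeq2 size factors moved the median of all genes by at most -0.08 on the log2 scale. The glia and the sham fraction comparisons both rest on 2 sham glia pools, 1 of them from low RNA input.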
